A study of Mus musculus with 3 samples.

Results

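Protocadherins were followed in the hippocampus of adult male mice born to older or to young mothers. The members are the probes whose gene name in the array files begins with Pcdh, and they number 64 of the 39429 gene probes on the array, for 47 of its 27317 gene names. They comprise 9 probes of the alpha cluster (Pcdha), 22 of the beta cluster (Pcdhb), 7 of the gamma cluster (Pcdhg) and 26 of protocadherins outside the clusters. Mothers were 15 to 18 months old (advanced maternal age) or 3 months old (the control group), all fathers were virgin males of 3 months, and the sons were killed at postnatal day 120. Each sample was a pool of hippocampal RNA from 3 sons of a group, with 3 pools per group. An array compared 1 older-mother pool, labelled with Cy3, with 1 young-mother pool, labelled with Cy5, and there were 3 arrays. The dyes were never exchanged, so a gene-specific dye effect and the effect of the group cannot be told apart. Mouse strain and litter are not given in the labels. In pooled tissue, fewer cells of a type and less RNA per cell cannot be told apart either.

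Protocadherins are cell adhesion proteins of the cadherin superfamily, and neurons are their main source in the brain. In the alpha and gamma clusters each gene supplies its own first exon, which is spliced to constant exons shared by the whole cluster, whereas beta genes consist of a single coding exon. Each neuron switches on its own small set of clustered promoters, through looping by CTCF and cohesin, and the proteins so displayed let a neurite recognise its own branches. The non-clustered delta-1 and delta-2 protocadherins act in axon growth, cell sorting and synapse remodelling.

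A probe was kept where at least 1 of the dyes gave a signal well above background on every array. This left 27629 probes, of which 55 were protocadherin probes of 42 genes, and 48 of these were above background in both dyes on every array. The other 7 kept probes were above background on no array in Cy3, the weaker dye, and their ratios rest on a signal near background: 1 probe each of Pcdhac1, Pcdhga10, Pcdhgb1, Pcdh11x, Pcdh12, Pcdh15 and Pcdh7. The 9 probes that were not kept were the only probes of Pcdhb1, Pcdhb11, Pcdhb19, Pcdhga1 and Pcdhga5, 3 of the 7 probes of Pcdh15 and 1 of the 3 probes of Pcdh11x. Values are log2 ratios of older over young mothers as deposited, given as the mean ± SD over the 3 arrays, and p-values are from limma, two-sided, with Benjamini-Hochberg adjustment across the 27629 kept probes. The word called means an adjusted p under 0.05.

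Most protocadherin probes did not pass the test. Of the 55 kept probes, 1 was called higher (Pcdh8) and 2 were called lower (Pcdhb7 and a probe on the constant exons of the gamma cluster) in sons of older mothers. That is 5.45% of the members, beside 16.6% of all kept probes (6.96% higher and 9.65% lower). A further 17 of the 55 had an unadjusted p under 0.05 without passing, so that 20 did in all. That level was reached by 10237 of all 27629 kept probes. The median log2 ratio of the members was -0.06, beside -0.02 for all kept probes. It was -0.04 for the 48 members above background in both dyes, of which 30 had means below 0, beside 37 of all 55. The other 7 passed the filter through Cy5 only, as did 1448 of all 27629 kept probes. Such a pass favours ratios below 0, and all 7 means were below 0. The median size of the ratio regardless of sign was 0.0984 for the 55 members, beside 0.108 for all kept probes. The ratio was below 0 on all 3 arrays for 20 members, 36.4% beside 33.3% of all kept probes, and above 0 on all 3 for 9 members, 16.4% beside 25.0%. When the loess curve was replaced by a single shift per array (median centring), the median of all kept probes was -0.37, so that a sign under that setting holds this shift. Relative to the median of all kept probes, 34 of the 55 members lay below it with the deposited ratios and 18 under median centring, and 20 members changed sides. Median centring leaves the dye difference that varies with brightness.

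**Figure D1:**
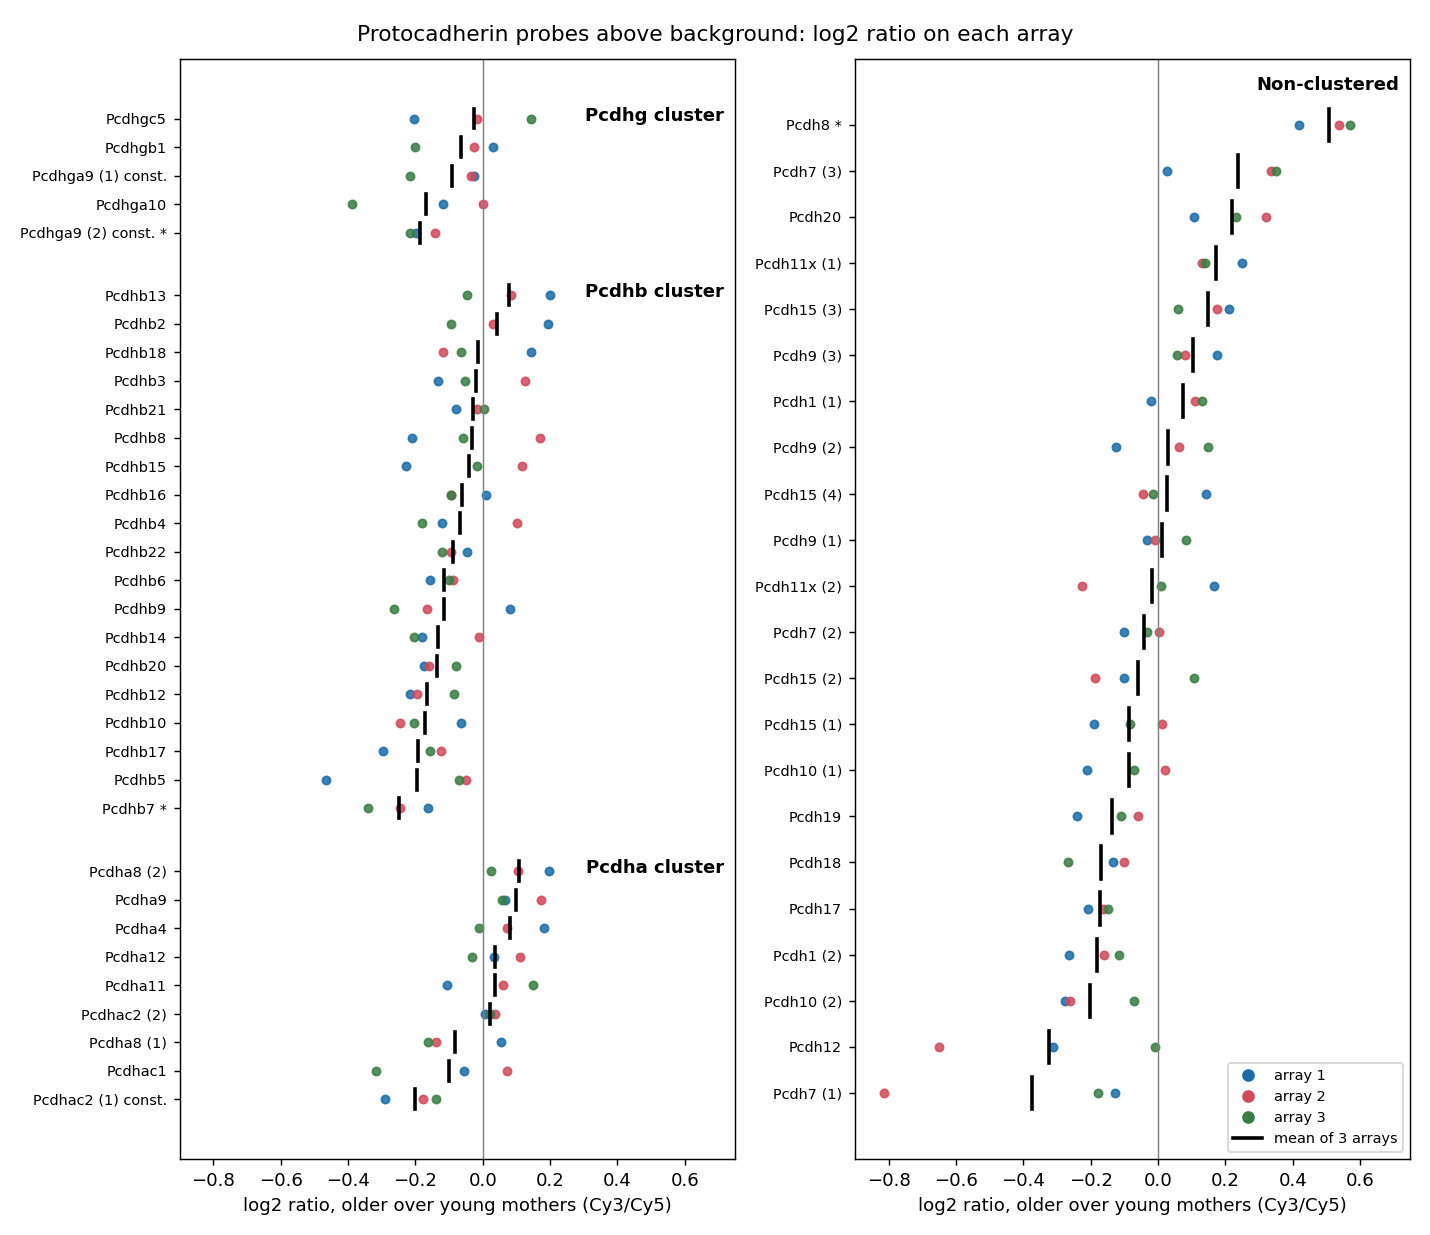
Log2 ratio of older over young mothers (Cy3 over Cy5) for the 55 kept protocadherin probes, 1 row per probe, with points for arrays 1, 2 and 3 and a black line for their mean; an asterisk marks the 3 called probes, "const." marks probes on constant exons, and numbers in brackets tell probes of a gene apart. Pcdh8 stands at 0.42 to 0.57 in the right panel (-0.17 under median centring, 0.21 over the median of all kept probes).

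Pcdh8 showed the clearest difference. It encodes a delta-2 protocadherin, also known as arcadlin, which is induced by neuronal activity and takes part in the removal of N-cadherin from synapses. Its probe lies at chr14:80166728-80166787 (mm9, the build named in the array files). The normalized log2 intensity was 11.89, 11.94 and 11.90 in the 3 older-mother pools and 11.47, 11.40 and 11.33 in the young-mother pools of arrays 1, 2 and 3. Every older-mother pool lay above every young-mother pool. The log2 ratios were 0.42, 0.54 and 0.57, a mean of 0.51 ± 0.08 or a 1.42-fold higher level (adjusted p = 0.0140, limma). Before dye normalization the spot signal over background was lower in Cy3 (2154, 2370 and 2286 units) than in Cy5 (4426, 4309 and 4408 units), as it was for most spots of the array. The positive ratio is therefore a difference from spots of like brightness: with median centring in place of loess the ratio was -0.17 and called lower, which is 0.21 above the median of all kept probes. Leaving out array 3 gave 0.48 with an adjusted p of 0.0522, and leaving out array 1 or 2 kept the call.

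The stretch of 250 bases before the start of Pcdh8 is printed because Pcdh8 is the only member called higher, with that of Pcdh17, a delta-2 gene of the same chromosome whose ratios were below 0 on every array. Both are from RefSeq (GRCm38.p6), 5′ to 3′ on the gene's strand, at chr14:79771313-79771562 on the minus strand for Pcdh8 and at chr14:84443313-84443562 on the plus strand for Pcdh17. Capitals mark ATTTGCAT, the octamer, and TATAAA, the TATA box.
Pcdh8: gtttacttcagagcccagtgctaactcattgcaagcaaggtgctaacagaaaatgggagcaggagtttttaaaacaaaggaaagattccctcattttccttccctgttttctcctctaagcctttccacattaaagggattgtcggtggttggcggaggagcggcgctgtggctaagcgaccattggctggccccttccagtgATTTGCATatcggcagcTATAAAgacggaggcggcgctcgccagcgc
Pcdh17: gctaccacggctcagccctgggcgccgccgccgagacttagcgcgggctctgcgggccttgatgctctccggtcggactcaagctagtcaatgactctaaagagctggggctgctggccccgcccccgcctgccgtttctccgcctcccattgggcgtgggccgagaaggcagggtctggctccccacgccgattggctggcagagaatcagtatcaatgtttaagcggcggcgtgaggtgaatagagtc

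In the Pcdh8 stretch the first base of TATAAA lies 30 bases before the start and that of ATTTGCAT 47 bases before it, and the G and C content is 51.2% against 64.8% for Pcdh17, which holds neither motif. TATAAA, searched on the gene's strand only, occurs in 7.59% of the 32851 promoters of the RefSeq table in the same window, and among the 9 non-clustered protocadherin genes examined it occurs in Pcdh8 and Pcdh15. ATTTGCAT, searched on both strands, occurs in 1.6% of promoters and among the 9 genes in Pcdh8 alone; it was chosen after the sequence was seen. The cAMP response element TGACGTCA (1.55% of promoters), searched on both strands, occurs in 0 of the 9 genes. For the serum response element only an exact spelling was searched, also on both strands. That spelling (0.0609% of promoters) occurs in 0 of the 9 genes too. Other spellings of the element were not searched, so its absence from these promoters was not tested. The shorter TGACG (17.8%) occurs in Pcdh9 and Pcdh10, and CCAAT (33.8%) in 8 of the 9. A match is a description of letters and not a binding site.

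The other delta-2 probes had ratios below 0. Of the 6 kept delta-2 probes, the 5 of Pcdh10, Pcdh17, Pcdh18 and Pcdh19 had mean ratios below 0, 0 of them were called by limma and 4 had an unadjusted p under 0.05. The same level was reached by 10237 of all 27629 kept probes. Pcdh17, a regulator of synaptic vesicle assembly, gave -0.21, -0.16 and -0.15 (mean -0.17 ± 0.03, adjusted p = 0.0561). Its older-mother pools, at log2 intensities of 11.68, 11.69 and 11.76, all lay under its young-mother pools, at 11.89, 11.85 and 11.91. Pcdh19, mutated in a form of epilepsy that affects mainly females, gave -0.24, -0.06 and -0.11 (mean -0.14 ± 0.09, adjusted p = 0.133). Pcdh18 gave -0.13, -0.10 and -0.27 (mean -0.17 ± 0.09, adjusted p = 0.0837), and with median centring its ratio lay 0.17 over the median of the kept probes. The difference between Pcdh8 and the other delta-2 genes was not tested.

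Pcdh10, which takes part in activity-dependent synapse elimination, had 2 kept probes. The brighter one gave -0.21, 0.02 and -0.07 (mean -0.09 ± 0.12, adjusted p = 0.336), with arrays on both sides of 0. The other one, at chr3:45186832-45186891, gave -0.27, -0.26 and -0.07 (mean -0.20 ± 0.11, adjusted p = 0.0692), with every array below 0. The brighter probe is printed because its place, chr3:45196739-45203246 in mm9, covers far more than its 60 bases, so that it joins separate exons and reads spliced RNA.
Pcdh10 probe: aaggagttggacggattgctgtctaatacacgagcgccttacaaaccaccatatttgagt

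Among the delta-1 genes (Pcdh1, Pcdh7, Pcdh9 and Pcdh11x), limma called 0 of the 10 kept probes, 4 had an unadjusted p under 0.05, and the median ratio was 0.02. An unadjusted p at that level was found for 10237 of all 27629 kept probes. The brightest probe of Pcdh1, an adhesion protein of neurons and epithelia, gave -0.27, -0.16 and -0.11 (mean -0.18 ± 0.08, adjusted p = 0.0665), and its dimmer probe gave 0.07 ± 0.08. The brightest probe of Pcdh11x, an X-linked gene, gave 0.25, 0.13 and 0.14 (mean 0.17 ± 0.07, adjusted p = 0.0665), and -0.13 with median centring, which lay 0.24 over the median of the kept probes. The 3 probes of Pcdh9 lay between 0.01 and 0.10, and the brightest of them gave -0.03, -0.01 and 0.08 (mean 0.01 ± 0.06, adjusted p = 0.864). The arrays of that Pcdh9 probe fell on both sides of 0, whereas another Pcdh9 probe lay above 0 on every array, at 0.18, 0.08 and 0.06 (adjusted p = 0.183). The brightest Pcdh11x probe lay above 0 on every array, but the other kept one, above background in Cy5 only, gave 0.17, -0.22 and 0.01 (mean -0.02 ± 0.20, adjusted p = 0.898).

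The 3 probes of Pcdh7, an adhesion protein whose tail binds a protein phosphatase, disagreed. The brightest gave 0.03, 0.33 and 0.35 (mean 0.24 ± 0.18, adjusted p = 0.0855), the highest ratio of the group after Pcdh8. The dimmest gave -0.13, -0.81 and -0.18 (mean -0.37 ± 0.38, adjusted p = 0.116), the lowest ratio of all members, set mainly by array 2. In that dim probe no older-mother pool was above background (19, -6 and 17 units over it). Its ratio therefore rests on a signal near background. With the bound described under processing the difference was 1.27-fold, which is an estimate and not a minimum. The remaining probe gave -0.04 ± 0.05. Under array weights, which count array 2 at 3.07 against 0.53 and 0.61, the brightest probe was called higher, at 0.30, and the dimmest lower, at -0.63.

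Of the remaining non-clustered genes, Pcdh20 gave 0.11, 0.32 and 0.23 (mean 0.22 ± 0.11, adjusted p = 0.0551). Its older-mother pools, at log2 intensities of 12.24, 12.44 and 12.37, lay above all young-mother pools, at 12.13, 12.11 and 12.14. Without array 1 the ratio was 0.28 with an adjusted p of 0.0402, and under median centring it was -0.48, which is -0.11 relative to the median of all kept probes. Pcdh12, a protocadherin of endothelial cells, was above background in no older-mother pool, so its ratio rests on a signal near background. It gave -0.31, -0.65 and -0.01 (mean -0.32 ± 0.32, 1.25-fold lower, adjusted p = 0.113) and was not called. Of Pcdh15, known from hair cell tip links and from oligodendrocyte precursors, 4 of 7 probes were kept; the brightest gave 0.14, -0.05 and -0.02 (mean 0.03 ± 0.10, adjusted p = 0.754) and changed sign under several settings. In all, the non-clustered group had 1 of 22 kept probes called, 6 above 0 and 7 below 0 on all arrays, and a median of -0.03.

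**Figure D2:**
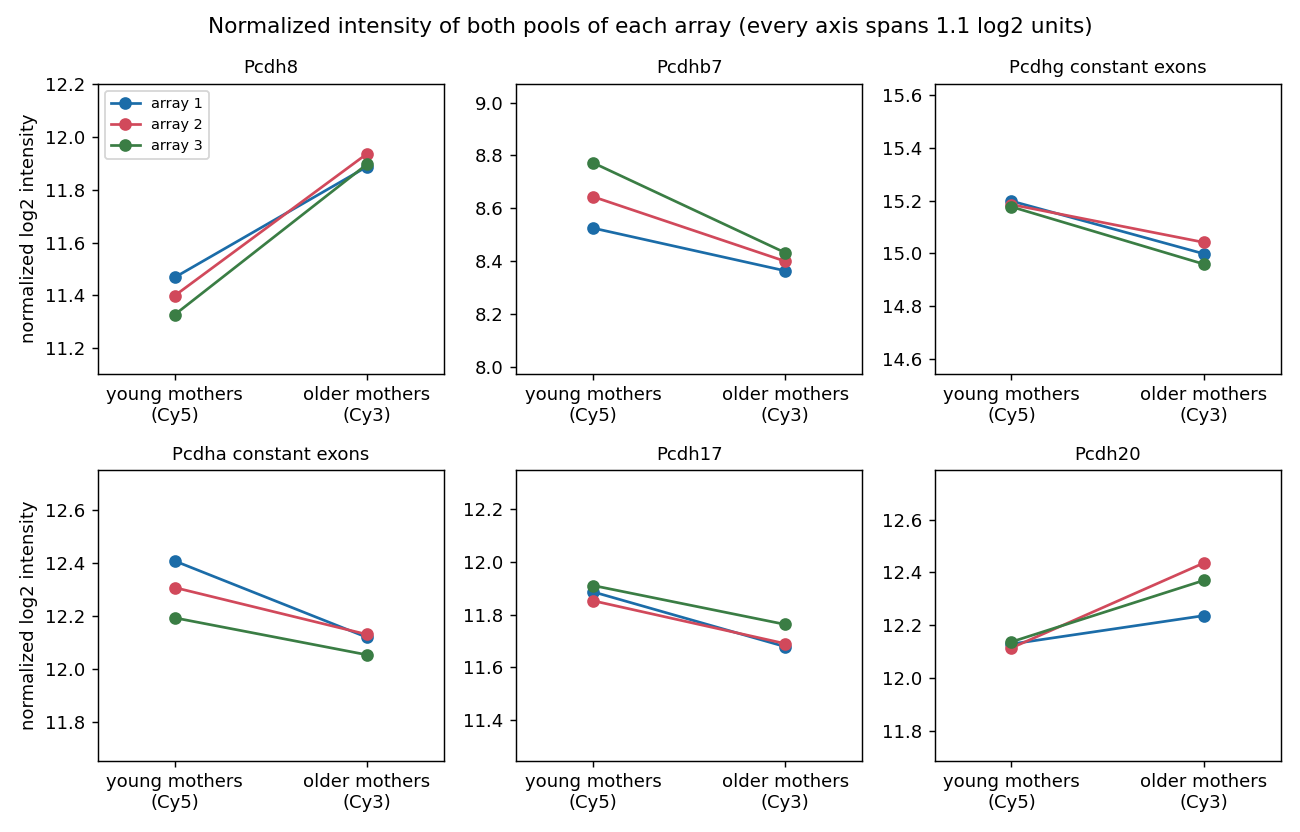
Normalized log2 intensity of the young-mother (Cy5) and older-mother (Cy3) pool of each array, joined by a line, for 6 probes; every vertical axis spans the same number of log2 units, and levels cannot be compared between probes. All 3 lines rise for Pcdh8 and Pcdh20 and fall for the other 4 probes; under median centring the ratios of Pcdh8 and Pcdh20 are -0.17 and -0.48, or 0.21 and -0.11 relative to the median of all kept probes.

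For the alpha cluster the members held probes named for 7 genes, which are not the whole cluster, and the other alpha isoforms are not analysed here. All 9 probes were above background in at least 1 dye, limma called 0 of them, and 1 had an unadjusted p under 0.05. The median ratio was 0.04, and 0.00 under median centring, which lay 0.37 over the median of all kept probes. Of the 9 probes, 7 lie in variable exons and name their own isoform; 6 of these had means above 0, the highest being a Pcdha8 probe at 0.20, 0.10 and 0.02 (mean 0.11 ± 0.09, adjusted p = 0.199). That Pcdha8 ratio was -0.24 with Agilent's processed signals. The brighter second Pcdha8 probe, in a variable exon whose accessions name several isoforms, went the other way, at 0.05, -0.14 and -0.16 (mean -0.08 ± 0.12, adjusted p = 0.361). The C-type gene Pcdhac1, which is expressed without the random choice of promoters, was above background in Cy5 only and gave -0.05, 0.07 and -0.32 (mean -0.10 ± 0.20, adjusted p = 0.411). The variable exon of the C-type gene Pcdhac2 gave 0.01, 0.04 and 0.02 (mean 0.02 ± 0.01, adjusted p = 0.75).

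The second probe named Pcdhac2 reads a different part of the RNA. It lies at chr18:37347235-37347294 (mm9), beyond all variable exon probes of the cluster, and its accessions name 4 alpha genes, so it is taken here as a probe of the shared constant exons. It gave -0.29, -0.18 and -0.14 (mean -0.20 ± 0.08, 1.15-fold lower, adjusted p = 0.0525). All older-mother pools, at log2 intensities of 12.12, 12.13 and 12.05, lay under all young-mother pools, at 12.41, 12.31 and 12.19. It stood just above the threshold and was called lower under 7 of 15 other settings. The difference between the constant exon probe and the variable exon probes was not tested.

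The gamma cluster has the same build, and 2 of its 5 kept probes read constant exons. The probe at chr18:38001378-38001437, named Pcdhga9 and shared by the accessions of 4 gamma genes, gave -0.20, -0.14 and -0.22 (mean -0.19 ± 0.04, 1.14-fold lower, adjusted p = 0.0490, limma). Its older-mother pools, at 15.00, 15.04 and 14.96, all lay under its young-mother pools, at 15.20, 15.18 and 15.18. The other constant exon probe, at chr18:37999725-37999784, gave -0.03, -0.04 and -0.22 (mean -0.09 ± 0.11, adjusted p = 0.289), below 0 on all arrays with array 3 lowest. The call on the first probe rests on a p next to the threshold: it was lost in 7 of 15 other settings, with adjusted p of 0.0918, 0.184 and 0.145 without arrays 1, 2 and 3, while the ratio stayed below 0 in all 15 (-1.05 to -0.14).

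The 3 kept variable exon probes of the gamma cluster were those of Pcdhga10, Pcdhgb1 and the C-type gene Pcdhgc5, and 0 were called or had an unadjusted p under 0.05 in limma. Pcdhgc5 gave -0.21, -0.02 and 0.14 (mean -0.03 ± 0.17, adjusted p = 0.827), with arrays on both sides of 0. Pcdhga10 and Pcdhgb1 were above background in Cy5 only, at -0.17 ± 0.20 and -0.07 ± 0.12. The 5 gamma means were all below 0, with a median of -0.09. Pcdhga10 and Pcdhgb1 passed the filter through Cy5 only, which favours a ratio below 0. Under median centring 3 of 5 were above 0 with a median of 0.18, which lay 0.56 over the median of all kept probes. That setting leaves the dye difference that varies with brightness. The 3 above 0 were the variable exon probes, with mean log2 intensities of 6.33 to 6.90. The members were named for 6 gamma genes, and the other gamma isoforms are not analysed here.

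In the beta cluster, 17 of 19 kept probes had mean ratios below 0, and 15 of 19 lay below the median of all kept probes. Under median centring 12 of 19 lay above the median of all kept probes, although 15 of 19 were below 0. That setting leaves the dye difference that varies with brightness. The 8 beta probes that changed sides were dim, with mean log2 intensities of 6.67 to 7.61. Beta probes at 8.52 or more stayed below the median. The part of brightness in these changes was not tested. With the deposited ratios, 9 of the 19 were below 0 on all 3 arrays, 47.4% beside 33.3% of all kept probes. Above 0 on all 3 were 0 of 19, beside 25.0%. The median was -0.09 (-0.13, -0.09 and -0.10 on arrays 1, 2 and 3), and all 19 probes were above background in both dyes on every array. Beta genes lack constant exons, and each probe names 1 gene.

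Pcdhb7 was the only beta gene called. Its probe, at chr18:37504330-37504389, gave -0.16, -0.24 and -0.34 (mean -0.25 ± 0.09, 1.19-fold lower, adjusted p = 0.0374, limma). The older-mother pools had log2 intensities of 8.36, 8.40 and 8.43 and the young-mother pools 8.52, 8.64 and 8.77. The groups did not overlap, and the young-mother pools spread more than the older-mother pools. Without array 2 or 3 the adjusted p was 0.147 and 0.115, with ratios of -0.25 and -0.20, and with a normexp offset of 16 it was 0.0561.

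The beta probes after Pcdhb7 by size were Pcdhb5 at -0.20 ± 0.23, which array 1 set at -0.47 and which lay 0.54 over the median of all kept probes under median centring, and Pcdhb17 at -0.19 ± 0.09 (-0.30, -0.12 and -0.16, adjusted p = 0.0638). The Pcdhb5 probe was dim, with 9, 23 and 29.5 units over background in the older-mother pools of arrays 1, 2 and 3. Pcdhb13, the highest of the cluster, gave 0.20, 0.08 and -0.05 (mean 0.08 ± 0.12, adjusted p = 0.391), and -0.02 with Agilent's processed signals. In all, 6 of the 19 had an unadjusted p under 0.05, beside 10237 of all 27629 kept probes. Pcdhb3 gave a measure of the error between spots within an array, because its probe was spotted 10 times on each array. The array means were -0.13, 0.13 and -0.05, and the SD between spots of an array was 0.0572, 0.0756 and 0.0836. The spread between arrays, 0.13, was larger than the spread between spots, and Pcdhb3 was among the beta genes with arrays on both sides of 0. The spread between arrays holds differences of pools and technical differences of arrays, which cannot be told apart here.

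**Figure D3:**
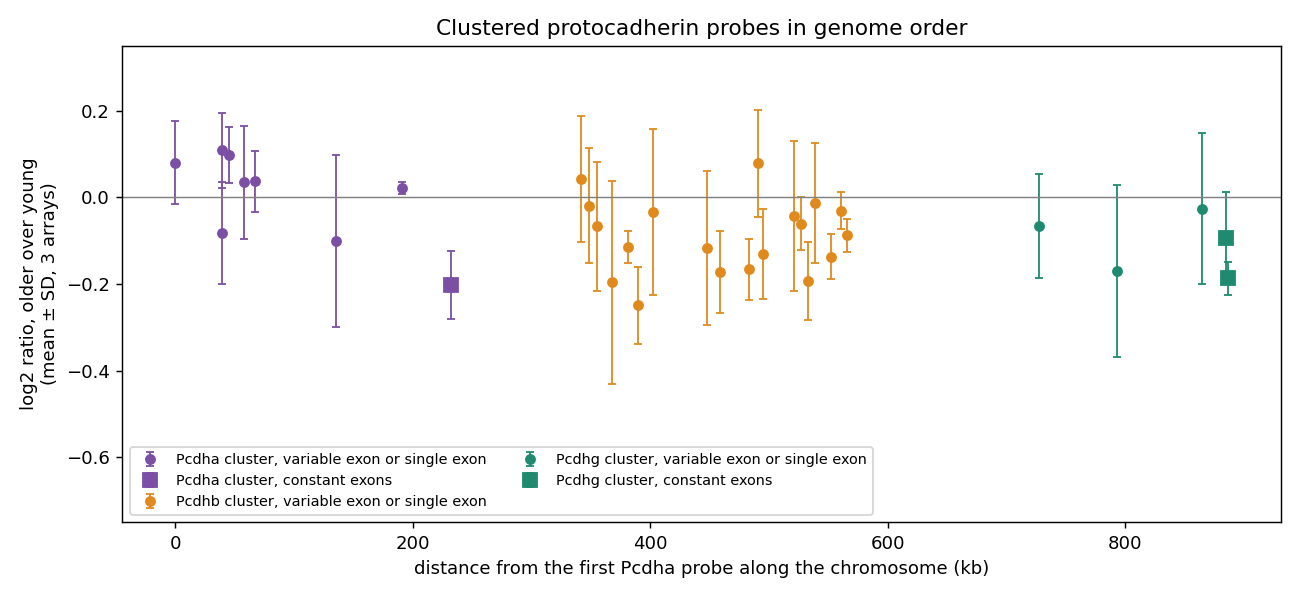
Mean log2 ratio ± SD over 3 arrays of the kept clustered protocadherin probes, against distance in kb from the first Pcdha probe along chromosome 18; circles are variable or single exons and squares are constant exons. The beta probes lie mainly below 0 (17 of 19), while under median centring 12 of 19 lie above the median of all kept probes. The 8 beta probes that change sides under it are dim, with mean log2 intensities of 6.67 to 7.61. The 3 constant exon probes lie below 0 at the end of their clusters. They do so under median centring too, but that setting leaves the dye difference that varies with brightness.

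Along the chromosome the clustered probes span 887 kb, from Pcdha4 to the constant exons of the gamma cluster. The 3 constant exon probes were below 0 on all 3 arrays (means of -0.20, -0.09 and -0.19). Under median centring they were also below the median of all kept probes, by -0.53, -0.17 and -0.68. That setting leaves the dye difference that varies with brightness, and their mean log2 intensities were 12.2, 8.84 and 15.1. Their place under median centring therefore cannot be read as added evidence. Pcdhb7 lies 390 kb into this span, between Pcdhb6 at -0.12 ± 0.04 and Pcdhb8 at -0.03 ± 0.19, which were not called. No run of neighbouring genes was tested.

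**Figure D4:**
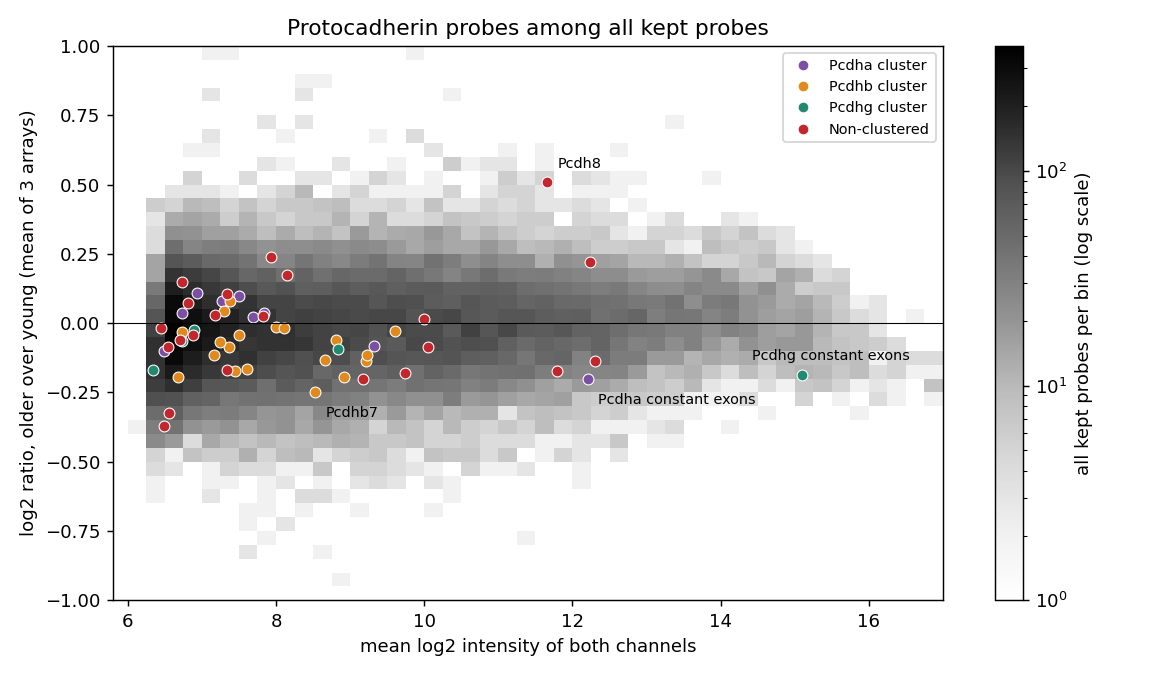
Mean log2 ratio of older over young mothers against mean log2 intensity of both dyes, with the 55 kept protocadherin probes as coloured points on the counts of all 27629 kept probes in grey (log scale); 55 probes past ±1 are not drawn. Pcdh8 lies at the upper edge of probes of its brightness at 0.51 (-0.17 under median centring, 0.21 over the median of all kept probes), and the 2 labelled constant exon probes lie below 0.

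The machinery around the protocadherins was read from lists of other genes, with 1 probe per gene. Over all 19593 genes measured in this way 17.3% were called (6.78% higher and 10.5% lower), with a median of -0.03. An unadjusted p under 0.05 in limma was reached by 7448 of them. Of 18 regulators of protocadherin promoter choice and chromatin, all measured, 1 rose and 1 fell, with a median of 0.05. Wapl, which releases cohesin from DNA, rose by 0.32 ± 0.02 (adjusted p = 0.0193, limma; -0.14 with median centring, which lay 0.23 over the median of the kept probes). Smchd1, which silences clustered protocadherin promoters, fell by 0.21 ± 0.09 (adjusted p = 0.0499, limma), at the threshold. It was not called with mean signals, with Agilent's processed signals, with an offset of 16 or with no filter, nor without array 2 or 3 (adjusted p = 0.207 and 0.154). The loop factors were not called: Ctcf gave -0.08, Rad21 -0.07, Smc1a 0.01 and Smc3 0.06, and the cohesin loader Nipbl gave 0.25 ± 0.15 (adjusted p = 0.0588).

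Of 24 genes for cleavage and intracellular signalling of protocadherins, 0 rose and 4 fell, with a median of -0.05. Taok2, a kinase that acts downstream of Pcdh8, fell by 0.37 ± 0.02 (adjusted p = 0.0162, limma). Wasf1 and Cyfip1, subunits of the WAVE complex that binds the tails of several protocadherins, fell by 0.26 ± 0.05 and 0.27 ± 0.08 (adjusted p = 0.0266 and 0.0300), and Nlgn1, a synaptic partner of gamma protocadherins, fell by 0.23 ± 0.01 (adjusted p = 0.0307). The other WAVE genes were not called: Cyfip2 gave -0.07, Nckap1 0.01, Abi1 0.21, Abi2 0.19 and Brk1 -0.06. The protease Adam10, which sheds protocadherins, gave -0.03.

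Related adhesion genes were read in the same way. Of 17 classical and type II cadherins measured among 19, 0 rose and 2 fell. Cdh15 fell by 0.40 ± 0.18 (adjusted p = 0.0302). Cdh3 was above background in no older-mother pool and was 1.29-fold lower in the mean (adjusted p = 0.0176, limma). It passed the filter through Cy5 only, which favours a ratio below 0, so its call is not independent of the filter. With both dyes required above background on every array, 16 genes of this list were tested and 1 was called lower. Under median centring the Cdh3 ratio was 0.10, which is 0.47 over the median of the kept probes. Of 12 Fat, Dachsous, Celsr and calsyntenin genes, 2 fell: the giant cadherins Fat2, by 0.32 ± 0.10 (adjusted p = 0.0244; with median centring its ratio lay 0.08 over the median of the kept probes), and Dchs1, by 0.26 ± 0.05 (adjusted p = 0.0281). Of 6 catenins measured among 7, limma called 0, and 0 had an unadjusted p under 0.05. Without array 3 limma called 0 genes in these 5 lists, with 3, 5, 8, 3 and 1 genes at an unadjusted p under 0.05. Calls over all kept probes were also fewest without array 3, so the absence of calls is not particular to these lists. Without array 2 limma called 1, Cdh15 (adjusted p = 0.024). Without array 1, the calls higher and lower in the 5 lists in order were 1 and 1, 3 and 3, 1 and 1, 0 and 3, and 0 and 0.

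Markers of cell types were measured beside the protocadherins. Over all 19593 genes measured with 1 probe each, 6.78% were called higher and 10.5% lower. Of 10 choroid plexus markers 3 fell and 0 rose, with a median of -1.08 (-0.86, -2.04 and -0.37 on arrays 1, 2 and 3). The means of 9 were below 0. Kcne2 went the other way, at -0.55, 0.25 and 3.20 (mean 0.97 ± 1.97, adjusted p = 0.345, limma), and was above background in Cy5 on 1 array only. The summed log2 intensity of the 10 markers, Kcne2 included, ran from 85.0 to 103 in older-mother pools and from 102 to 104 in young-mother pools. Of 10 leptomeningeal fibroblast markers 7 fell, among them Igf2 (by 0.74 ± 0.30) and Ogn (by 0.40 ± 0.09), with a median of -0.39 and sums of 84.8 to 90.8 against 90.6 to 93.1. Every marker of both lists was above background in Cy3 on at least 1 array. Array 2, where the medians of both lists were lowest, also set the low ratios of Pcdh12 and of the dim Pcdh7 probe. The part of choroid plexus and leptomeningeal cells in the protocadherin ratios was not tested. Pcdh8 was higher on all 3 arrays, with its lowest ratio on array 1, and was at -0.17 under median centring, 0.21 over the median of all kept probes.

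Neuronal markers moved both ways, and hippocampal tissue was present in all pools by its markers. Of 11 hippocampal neuron markers 2 rose (Calb1 by 0.24 and Neurod2 by 0.19, with values of 0.03 and -0.17 relative to the median of the kept probes under median centring, both below 0 there) and 3 fell (Neurod6 by 0.33, Dkk3 by 0.23 and Rbfox3 by 0.20), with a median of -0.01. Of 7 interneuron markers 1 fell, the vesicular transporter Slc32a1 (by 0.35). Among 6 oligodendrocyte precursor markers limma called 0 with 3 at an unadjusted p under 0.05, and among 7 myelin markers 0 with 1. That level was reached by 7448 of all 19593 genes. Of 7 astrocyte markers 1 rose (Gfap by 0.47, and -0.21 under median centring, 0.16 over the median of the kept probes), and of 7 microglial markers 1 rose (C1qa by 0.29, and -0.32 under median centring, 0.05 over that median) and 1 fell (Cx3cr1 by 0.43). Of 7 endothelial markers 1 rose (Flt1 by 0.37, and -0.30 under median centring, 0.07 over that median) and 2 fell (Cldn5 by 0.64 and Tie1 by 0.29, the latter 0.13 over that median under median centring), with medians of -0.21, -0.16 and 0.08 on arrays 1, 2 and 3. The endothelial gene Pcdh12 had its ratio nearest 0 on array 3 too, and the relation was not tested. Without array 3 only Cldn5 of all these markers was called, and without array 2 the call count was 6 for the choroid plexus and 1 for the leptomeningeal list. Without array 1 those counts were 1 and 6. Calls over all kept probes also changed with the array left out, and were fewest without array 3. These counts therefore cannot be read as a result about the marker lists.

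**Figure D5:**
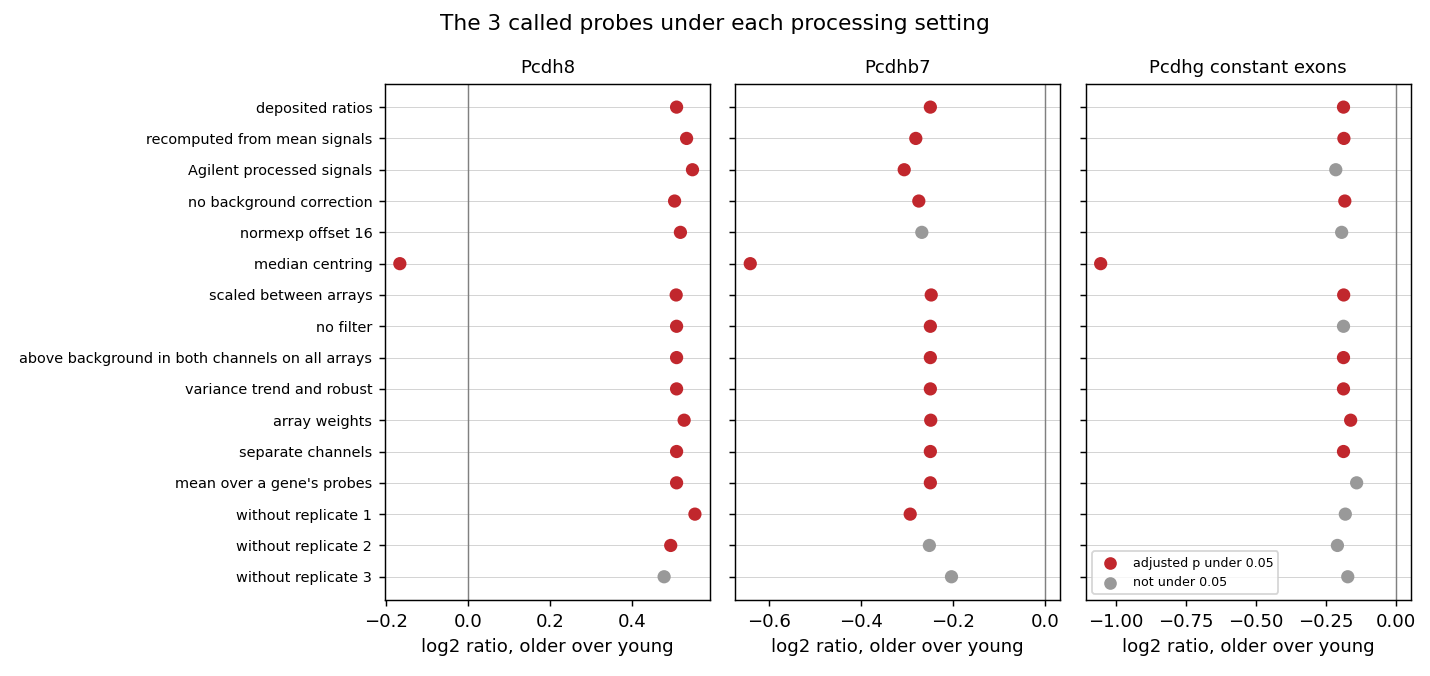
Log2 ratio of older over young mothers for the 3 called protocadherin probes under the deposited ratios and 15 other settings, red where the adjusted p was under 0.05 and grey otherwise; the horizontal axes differ. Pcdh8 was called in 14 of the 15, once with the opposite sign (-0.17 under median centring, 0.21 over the median of all kept probes), Pcdhb7 in 12 and the gamma constant exon probe in 8.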

How the data were processed

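Total RNA was measured on 3 two-colour arrays (probes of 60 bases), 1 older-mother and 1 young-mother pool on each, on 1 slide. Per the file headers, Agilent Feature Extraction 10.10.1.1 wrote raw and processed spot intensity values, a log10 ratio, and flags of another (other) kind for background, saturation and outliers, with positions in mm9. The deposited values are log2 ratios, Cy3 divided by Cy5. Its making is not stated; normexp (offset 50) and loess (span 0.3) on median signals gave the same values within 5e-10. Median signal over background was 54 to 58.5 units in Cy3 and 142 to 153 in Cy5, with 0 saturated spots; correlations of arrays over kept probes were 0.49 to 0.69. The number of arrays limits precision. No label says whether the pools of a group came from separate litters.

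Spots of a probe were averaged without outlier-flagged spots, and ratios were tested with an intercept in limma 3.58.1 (R 4.3.3; 2 residual and 3.61 prior degrees of freedom). Intensities per dye are after Aquantile scaling. Pools that do not overlap are described for single probes only, and the share over all kept probes is not given. The pools also did not overlap for the dim Pcdhga5 probe, which was not kept. A bound sets a dim probe at the higher of its own value and the lowest value above background. It is not an upper limit of the level, so a fold taken from it is not a minimum. On simulated ratios for 27629 probes, 37 of 100 changes of 0.5 and 70 of 100 changes of -1 were called, with 2 of 27429 unchanged probes. In the data 4589 probes were called, many more than were changed in the simulation. Because the adjustment depends on that number, the simulated shares do not give the power of the main test. Array values are printed for called members, the brightest probe of each non-clustered gene, C-type genes and the extremes of each group, and up to 4 members per list with the smallest p; other members and genes were named after their values were seen. Members and lists were chosen with earlier results of these data known. Gene names of members are those of the files.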

Additional observations from a re-analysis of the deposited data

How the results depend on the processing

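Under the 15 other settings (other signals, background correction, scaling, filter, variance model, weights, separate channels, gene means and each array left out), 26 of 312 values of named members changed sign. Called probes changed as follows, higher and lower among protocadherins first. Mean signals gave 1 and 4 (all probes 2189 and 2946), and no background correction gave 4 and 11. Offset 16 gave 1 and 0 (16 at an unadjusted p under 0.05 in limma, all probes 1257 and 1730). Median centring gave 13 and 29 (all probes 5631 and 17573), and no filter gave 1 and 1. Variance trend gave 2 and 4, and array weights gave 6 and 12 (all 4708 and 6453). Separate channels gave 2 and 6, and gene means gave 1 and 1 (all higher 1234). Where the counts over all probes are not given, the member counts cannot be read as a result about protocadherins. Agilent's processed signals called 1169 and 1451 of all probes. Leaving out an array gave 0 to 3 higher and 0 to 1 lower members (10 to 15 at an unadjusted p under 0.05), and 62 to 1712 higher and 19 to 2387 lower of all probes, both lowest without array 3. The share of calls that were higher was 41.9%, and 24.3% under median centring. The median of the beta probes was -0.13 to -0.056 with an array left out, -0.11 with offset 16 and -0.28 under median centring (0.09 over all kept probes); that of the gamma probes was -0.21 with processed signals and 0.18 under median centring.

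Signs changed under median centring for Pcdh8 (-0.17), Pcdh11x (-0.13), Pcdh12 (0.13), Pcdh15 (-0.19), Pcdh20 (-0.48), Pcdh7 (-0.0085 and 0.13), Pcdh9 (-0.56), Pcdhac1 (0.40), Pcdhac2 (-0.15) and Pcdhgc5 (0.18). Of these, Pcdh8, Pcdh11x, Pcdh15, Pcdhac2 and the brightest Pcdh7 probe kept their side of the median of all kept probes, -0.37. With processed signals they changed for Pcdh15 (-0.040), Pcdhgc5 (0.015), Pcdha8 (-0.24) and Pcdhb13 (-0.021), with mean signals for Pcdh9 (-0.019) and Pcdhac2 (-0.00060), and without background correction for Pcdh15 (-0.0057) and Pcdhgc5 (0.035). Array weights gave Pcdh15 -0.017, and gene means gave Pcdh7 -0.059 and Pcdhac2 -0.090. With an array left out, Pcdh15 ran from -0.030 to 0.063, Pcdhgc5 from -0.11 to 0.064, Pcdh9 from -0.021 to 0.037 and Pcdhac1 from -0.19 to 0.0090. Median centring leaves the dye difference that varies with brightness in the ratios; the cause of the other changes was not tested. Signals near background limit the 7 members not above it in Cy3. The main test is itself paired by array, because each ratio joins the 2 pools of an array.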
